A study of Mus musculus with 20 samples.

Results

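The Lce1 genes encode late cornified envelope proteins of mouse epidermis, and 10 of them (Lce1a1, Lce1a2, Lce1b, Lce1e, Lce1f, Lce1g, Lce1h, Lce1i, Lce1l and Lce1m) were followed across imiquimod treatment and keratinocyte loss of Zfp36. Members were taken by symbol: a row of the deposited table counted where the platform annotation gave it a member's symbol and no other, and the brightest such probe set over the 20 arrays stood for the gene. All 10 were found among 22180 genes measured this way. Abdominal skin came from mice with the genotype zfp36 fl/fl (controls) and from mice with zfp36 fl/fl K14 cre (knockouts), and each genotype received a mock preparation or imiquimod, a Toll-like receptor 7 agonist that inflames mouse skin, on 5 days in a row. Skin was taken 4 hours after the final dose from 5 animals in each of the 4 groups. Every animal, controls included, carried the floxed alleles. The Cre was under the promoter of keratin 14, a gene of basal keratinocytes, and the loss of Zfp36 was not measured by cell type. The labels give no ages. The question the design addresses is how loss of Zfp36, which encodes the mRNA decay factor tristetraprolin, in keratinocytes alters the response of skin to imiquimod.

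The cornified envelope is the protein shell that replaces the plasma membrane of keratinocytes as they die into the stratum corneum. Late cornified envelope proteins are small, glycine-, serine- and cysteine-rich substrates that transglutaminases cross-link into that shell after involucrin and loricrin, and their genes sit with those of filaggrin, loricrin and the small proline-rich proteins in the epidermal differentiation complex. In human skin, LCE1 genes are expressed in normal epidermis, whereas LCE3 genes are induced by injury and in psoriasis.

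In the RefSeq order of genes on mouse chromosome 3 (assembly GRCm38.p6), Lce1a1, Lce1b and Lce1a2 follow Lce6a, and Lce1e, Lce1f, Lce1g, Lce1h and Lce1i lie side by side behind Lce1c and Lce1d. Lce1l follows Kprp. Lce1m stands apart from the rest, behind the 6 Lce3 genes and Crct1. Lce1c, Lce1d and Lce1j have no probe set that names them alone and were not used here.

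RefSeq promoter windows (GRCm38.p6, 250 bases before to 50 after the annotated start site) were given for 9 of the 10 members; Lce1f was not among them. All 9 hold 1 stretch of 6 bases at nearly the same place, AAAAGG, which begins 26 or 27 bases before the start site. The stretch and its 20 bases on either side are shown because they place the members side by side, all on the minus strand, read 5′ to 3′ toward the start site, with the shared bases in capitals.
Lce1a1: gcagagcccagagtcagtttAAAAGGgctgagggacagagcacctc
Lce1a2: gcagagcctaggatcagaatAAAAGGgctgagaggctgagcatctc
Lce1b: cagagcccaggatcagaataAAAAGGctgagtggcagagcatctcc
Lce1e: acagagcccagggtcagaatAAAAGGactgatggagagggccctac
Lce1g: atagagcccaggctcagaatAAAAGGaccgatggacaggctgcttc
Lce1h: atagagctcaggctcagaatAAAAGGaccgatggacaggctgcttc
Lce1i: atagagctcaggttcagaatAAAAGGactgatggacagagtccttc
Lce1l: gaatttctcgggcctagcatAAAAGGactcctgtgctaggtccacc
Lce1m: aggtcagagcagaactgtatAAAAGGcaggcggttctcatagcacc
The flanks of Lce1g and Lce1h are nearly letter for letter alike, whereas those of Lce1l and Lce1m share little with the others beyond the stretch itself. AAAAGG occurs on either strand in 20.6% of 32851 windows of this length over all genes. The stretch was found after the sequences were seen, and a match is a description, not a binding site.

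A longer stretch, ACTGTCTCAC, lies 64 or 65 bases before the start site in 7 windows, those of Lce1a1, Lce1a2, Lce1b, Lce1e, Lce1g, Lce1h and Lce1i, and occurs in 46 of the 32851 windows (0.14%). Lce1l and Lce1m lack these letters. The stretch was picked as the longest one shared by the 7 windows, with Lce1l and Lce1m set aside beforehand. Its absence from Lce1l and Lce1m and its share of all windows are therefore descriptions, not tests. By its brighter probe set, Lce1m was the member that differed most from the others, and Lce1e had the steepest response to imiquimod. Lce1l also lacks the longer stretch. In controls it had the smallest difference of the members that rose under imiquimod (1.03), and in knockouts it did not pass (0.24), as given below. A link between these letters and the responses was not tested. The 250 bases before the start site of Lce1e and of Lce1m are printed here, with the shared stretches in capitals.
Lce1e (chr3:92709075-92709324, minus strand): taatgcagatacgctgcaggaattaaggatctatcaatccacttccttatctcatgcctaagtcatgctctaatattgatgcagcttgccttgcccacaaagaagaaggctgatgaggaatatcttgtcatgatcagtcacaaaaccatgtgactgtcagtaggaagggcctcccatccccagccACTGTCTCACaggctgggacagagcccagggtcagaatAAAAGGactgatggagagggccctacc
Lce1m (chr3:93019062-93019311, minus strand): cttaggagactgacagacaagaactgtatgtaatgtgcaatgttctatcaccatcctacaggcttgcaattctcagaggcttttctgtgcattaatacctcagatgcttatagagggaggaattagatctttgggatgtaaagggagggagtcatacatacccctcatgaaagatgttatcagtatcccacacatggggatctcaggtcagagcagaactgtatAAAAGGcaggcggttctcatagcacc
Among the 21 pairs of the 7 windows, identity ran from 64.1% to 86% with a median of 68.8%, and the closest pair was Lce1g and Lce1i. Lce1l matched the 7 at 51.1% to 53.3%, and Lce1m matched them at 50.2% to 52.5%. The Lce3 windows were matched at 48.6% to 52.5% by Lce1m, at 49.1% to 52.8% by Lce1l and at 48% to 52.3% by Lce1e. That level was thus not particular to Lce1m, and no identity of unrelated windows was computed beside it. Of 4 motifs searched on both strands, the AP-1 site TGANTCA was in 0 of 9 member windows and in 7.81% of all windows. The TATA box, searched as the exact letters TATAAA, was in the Lce1m window only, and in 13.6% of all windows. Near variants of these letters were not counted. In Lce1m the TATAAA match overlaps the AAAAGG stretch. The KLF core CACCC was in the windows of Lce1b, Lce1e and Lce1h (57.5% of all windows), and GATAA was in those of Lce1e and Lce1m (25.4%).

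Values are the authors' deposited array values on a scale taken as log2, with array medians from 4.94 to 5.04 and correlations between arrays of 1 group from 0.953 to 0.988. Zfp36 itself was lower in the knockouts, at 5.43 ± 1.54 against 7.46 ± 0.22 in mock-treated skin and 6.40 ± 0.85 against 8.0 ± 0.26 under imiquimod (SD, n = 5; exact two-sided permutation test, p = 0.00794 in each). It did not pass limma's test over all genes (adjusted p = 0.999 and 0.221). The knockout arrays were spread: mock-treated replicates 2 and 3 read 6.84 and 7.12 and imiquimod-treated replicates 2 and 4 read 7.41 and 7.18, close to the lowest controls at 7.22 and 7.68. The number of arrays limits the precision. Whole skin was measured, so fewer cells of a type and less RNA per cell cannot be told apart. The members are close paralogs, and the labels do not say which bases a probe set reads, so a value assigned to 1 member may hold signal of another. By mean level, Lce1m, Lce1f and Lce1b lay at the 94.8th, 94.7th and 89.1st percentile of all genes, whereas Lce1i, Lce1a1 and Lce1g lay at the 7.22nd, 17.2nd and 21.4th. Detection calls were not used here, so the folds of these 3 dim members are uncertain.

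Signal of hair follicle genes differed widely among the arrays of each group, and 4 of 5 arrays were high in mock-treated controls and low in imiquimod-treated controls, although no hair gene passed limma's test. The mean of 21 measured hair shaft and inner root sheath genes lay between 8.84 and 9.83 in 4 of 5 mock-treated control arrays and at 5.94 in replicate 5, whereas it lay between 5.41 and 5.89 in 4 of 5 imiquimod-treated control arrays and at 8.96 in replicate 5. The knockouts were as spread: the mean ran from 5.91 to 9.76 across the mock-treated arrays, and under imiquimod its range was 5.56 to 8.80. In each group, 1 array stood farthest from its group's median: replicate 5 in both control groups, replicate 3 in mock-treated knockouts and replicate 1 in imiquimod-treated knockouts. Over the 20 arrays, the hair mean and the mean of the 10 members correlated at r = −0.84, and at r = −0.84 again after each group's mean was subtracted, so arrays with more hair signal had lower Lce1 values within groups also. Results of imiquimod against mock are therefore given below also without those 4 arrays and with the hair mean as a covariate. Comparisons of genotypes are given with only some of these checks. By group mean, the hair list itself was lower under imiquimod, at 8.81 in mock-treated and 6.34 in imiquimod-treated controls and at 8.41 and 6.60 in knockouts. The covariate may therefore take out part of the imiquimod difference. Calls lost or gained with it cannot be assigned to hair content.

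In controls, imiquimod raised 9 of the 10 members, and none fell. In all, 6.47% of genes rose and 4.37% fell in this comparison (limma, Benjamini-Hochberg adjusted p under 0.05 over 22180 genes). The median difference of the members was 1.44 on the log2 scale, against −0.004 over all genes. The steepest rises were in neighbouring genes: Lce1e rose 13.4-fold, Lce1f 8.18-fold and Lce1h 5.32-fold. Lce1m, at the far end of the cluster, did not pass the test by its brighter probe set.

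Lce1e in mock-treated controls read 3.79, 4.48, 5.02, 4.76 and 6.13 in replicates 1 to 5. Under imiquimod it read 8.67, 8.90, 8.54, 8.58 and 8.22. Every imiquimod-treated array was thus more than 2 log2 units above the highest mock-treated one, and the mock-treated values were the more spread (SD 0.86 against 0.25). The difference was 3.75 ± 0.35 (SE; 95% confidence interval 3.02 to 4.47; adjusted p = 2.9e-07).

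Lce1f read 6.64, 6.75, 7.10, 6.87 and 8.23 in mock-treated controls. It read 10.26, 10.43, 10.10, 10.02 and 9.94 under imiquimod, a difference of 3.03 ± 0.30 (SE, adjusted p = 7.84e-07). Replicate 5, the mock-treated array low in hair genes, was again the highest of its group, and still lay below all treated arrays. Lce1h read 4.26, 4.79, 4.46, 5.23 and 5.80 in mock-treated controls. It read 7.50, 7.86, 7.39, 6.84 and 7.01 in imiquimod-treated controls, a difference of 2.41 ± 0.29 (SE, adjusted p = 8.36e-06). The groups of Lce1h did not overlap either.

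Lce1i and Lce1g, both dim, completed the block of neighbours. Lce1i read 1.93, 2.0, 2.17, 1.99 and 2.57 in mock-treated controls. It read 3.96, 4.33, 3.73, 3.65 and 3.03 under imiquimod, a difference of 1.61 ± 0.25 (SE, adjusted p = 0.000156). Lce1g ranged from 3.0 to 3.78 without and from 4.18 to 5.32 with imiquimod, a difference of 1.41 ± 0.20 (SE, adjusted p = 7.81e-05). Lce1e, Lce1f, Lce1g, Lce1h and Lce1i were the 5 members whose treated arrays all exceeded the mock-treated ones, which 5.6% of all genes showed.

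The members at the Lce6a end rose less than Lce1e, Lce1f, Lce1h and Lce1i, and their groups overlapped through mock-treated replicate 5. Lce1b read 6.42, 6.99, 7.69, 7.35 and 8.62 in mock-treated controls. It read 8.90, 9.15, 8.58, 8.57 and 8.32 under imiquimod, a difference of 1.29 ± 0.31 (SE, adjusted p = 0.00992). Lce1a1 ranged from 2.34 to 4.12 and then from 3.91 to 5.19, a rise of 1.46 ± 0.29 (SE, adjusted p = 0.00222). Lce1a2 ranged from 4.71 to 6.97 and then from 6.74 to 7.87, a rise of 1.17 ± 0.31 (SE, adjusted p = 0.0195). In each of these 3 genes, the overlap rested on the highest mock-treated value, that of replicate 5.

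Lce1l, the last member before the Lce3 genes, read 4.36, 4.24, 4.53, 4.00 and 5.16 in mock-treated controls. It read 5.70, 5.88, 5.52, 5.18 and 5.14 under imiquimod, a difference of 1.03 ± 0.24 (SE, adjusted p = 0.00828). Among the members that rose it had the smallest difference. Here too replicate 5 of the mock-treated arrays overlapped the treated range.

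Without the 4 arrays farthest in hair genes, the count in controls was again 9 higher and 0 lower, and the rise of Lce1e was 4.16. With the hair mean as a covariate, 6 members were higher and Lce1m was lower (−1.68, adjusted p = 0.000244), while Lce1a2, Lce1b and Lce1l no longer passed, at 0.61, 0.56 and 0.50. As the hair mean also differed between these groups, that fit may take out part of the imiquimod difference. Over all genes, 1810 were higher and 1773 lower without those arrays, and 1200 and 892 with the covariate, against 1435 and 969. Lce1a2 also missed the threshold without imiquimod-treated control replicate 1 (adjusted p = 0.0551) or replicate 2 (adjusted p = 0.065).

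**Figure D1:**
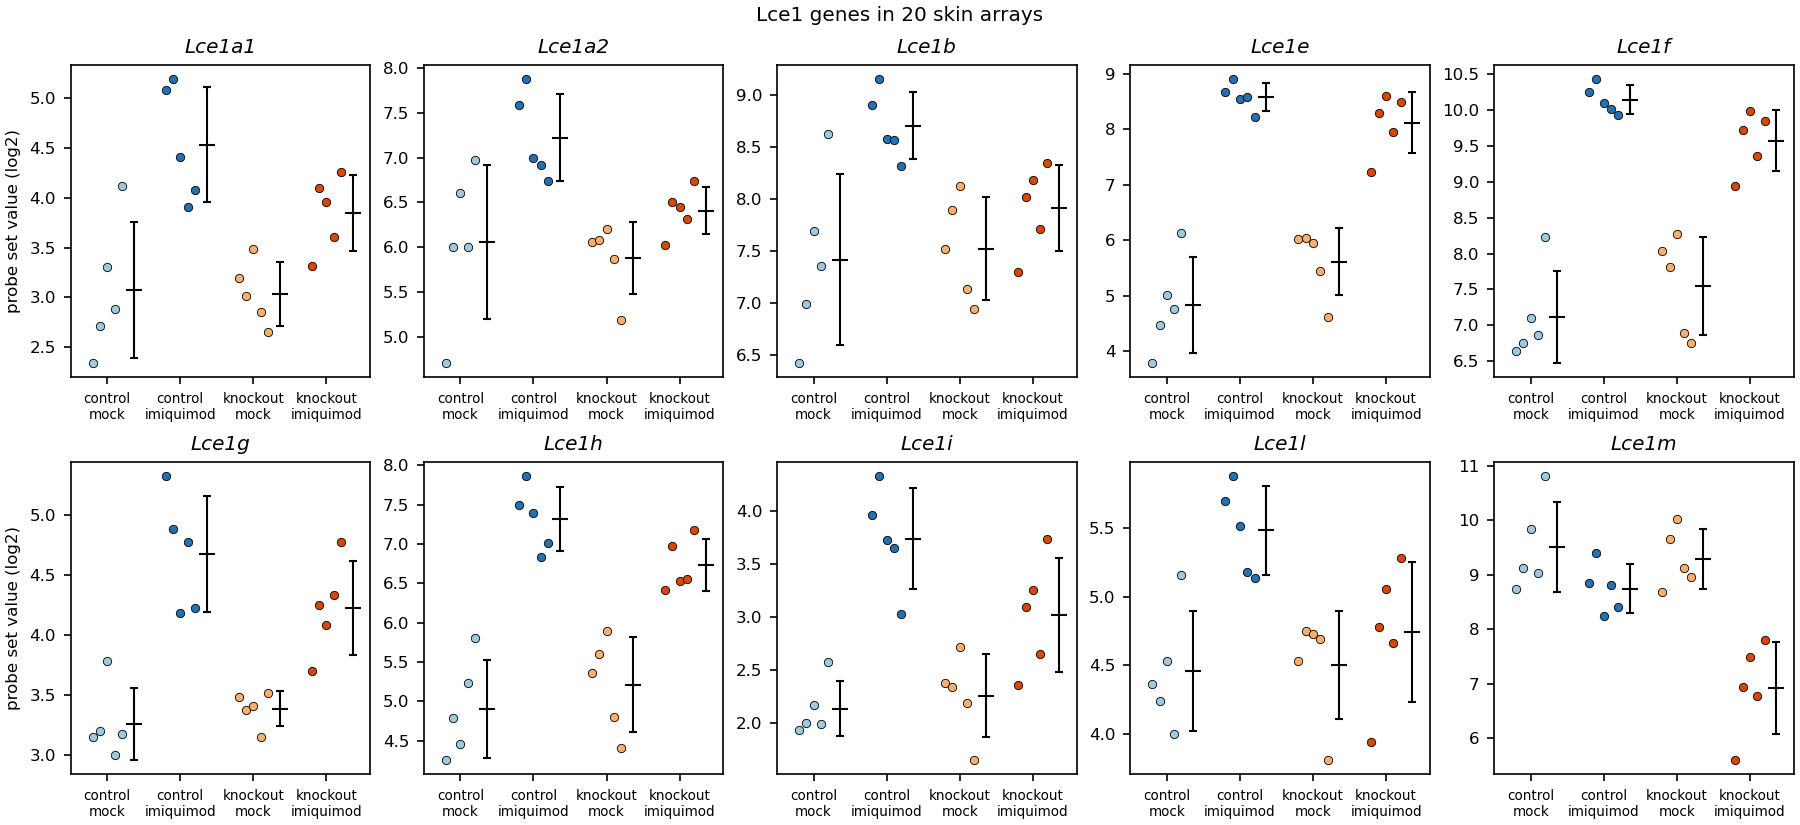
Each panel plots 1 of the 10 Lce1 members, with the deposited log2 value on the vertical axis and the 4 groups of 5 arrays on the horizontal axis; points are single arrays and bars the group mean with its SD. Lce1e rose from 4.84 in mock-treated to 8.58 in imiquimod-treated controls, whereas Lce1m, by its brighter probe set, read 9.51 and 8.74 in these groups and 6.92 in imiquimod-treated knockouts.

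In knockouts, imiquimod raised 5 of the 10 members and lowered 1. In this comparison, 11.1% of all genes rose and 9.71% fell. The 5 that rose were the same neighbouring genes, Lce1e (5.67-fold), Lce1f (4.07-fold), Lce1h (2.86-fold), Lce1g (1.79-fold) and Lce1i (1.70-fold). The member that fell was Lce1m, 5.17-fold by its brighter probe set but not by its dimmer one, as set out further on. The median difference of the members was 0.79, against −0.002 over all genes.

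Lce1e read 6.02, 6.04, 5.95, 5.45 and 4.62 in mock-treated knockouts. It read 7.24, 8.29, 8.61, 7.96 and 8.49 under imiquimod, a difference of 2.50 ± 0.35 (SE; 95% confidence interval 1.78 to 3.22; adjusted p = 2.9e-05). The lowest treated value, that of replicate 1, came from the array with the most hair signal of its group. Lce1f read 8.03, 7.81, 8.27, 6.89 and 6.75 in mock-treated knockouts. It read 8.94, 9.73, 9.99, 9.36 and 9.85 under imiquimod, a difference of 2.02 ± 0.30 (SE, adjusted p = 6.48e-05). Lce1h read 5.36, 5.6, 5.90, 4.80 and 4.41 in mock-treated knockouts. Under imiquimod it read 6.41, 6.97, 6.53, 6.55 and 7.18, a difference of 1.51 ± 0.29 (SE, adjusted p = 0.00079). For Lce1e, Lce1f, Lce1g and Lce1h the treated arrays all lay above the mock-treated ones, which 7.16% of genes showed, and replicate 1 was the lowest treated array in each.

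Lce1g ran from 3.15 to 3.52 across mock-treated knockouts and under imiquimod from 3.7 to 4.77, a difference of 0.84 ± 0.20 (SE, adjusted p = 0.00554). Lce1i read 2.38, 2.34, 2.72, 2.19 and 1.65 in mock-treated knockouts. It read 2.36, 3.09, 3.25, 2.65 and 3.74 under imiquimod, a difference of 0.76 ± 0.25 (SE, adjusted p = 0.0327). The groups of Lce1i overlapped. It missed the threshold without mock-treated knockout replicate 2, 4 or 5 or imiquimod-treated knockout replicate 2, 3 or 5 (adjusted p from 0.052 to 0.103).

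The other 4 members did not pass the test in knockouts. Lce1a1 had a difference of 0.81 ± 0.29 (SE, adjusted p = 0.0558) and passed without imiquimod-treated knockout replicate 1 (0.94, adjusted p = 0.0354) or mock-treated knockout replicate 3 (0.93, adjusted p = 0.0408). It also passed when an array outside the comparison was left out of the fit, mock-treated control replicate 1 or 5 or imiquimod-treated control replicate 2 (adjusted p from 0.0225 to 0.0484). Lce1a2 had a difference of 0.53 with a 95% confidence interval from −0.13 to 1.18, Lce1b of 0.39 with an interval from −0.26 to 1.05, and Lce1l of 0.24 with an interval from −0.27 to 0.75. Lce1b read 7.52, 7.89, 8.12, 7.13 and 6.94 in mock-treated and 7.30, 8.02, 8.18, 7.71 and 8.35 in imiquimod-treated knockouts, so that its groups lay almost on top of each other. Lce1l read 4.53, 4.75, 4.73, 4.69 and 3.81 in mock-treated and 3.94, 4.78, 5.06, 4.66 and 5.28 in imiquimod-treated knockouts.

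Without the 4 arrays farthest in hair genes, 6 members were higher in treated knockouts, Lce1a1 among them (1.06, adjusted p = 0.00508), and Lce1m was lower. With the hair mean as a covariate, 4 were higher and Lce1m lower. Over all genes, 2538 were higher and 2185 lower without those arrays, and 2611 and 2700 with the covariate, against 2451 and 2154. Lce1i no longer passed under the covariate, at 0.35, and the estimates of Lce1b and Lce1l turned to −0.14 each.

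In mock-treated skin, 0 of the 10 members differed between knockouts and controls in limma's test (adjusted p = 0.999 for each), and 1, Lce1e, had an unadjusted p under 0.05, as did 708 of the 22180 genes. Of all genes, 0.00902% were called higher and 0% lower in this comparison. The differences of the members, knockout minus control, ran from −0.22 for Lce1m to 0.78 for Lce1e, with a median of 0.12. The Lce1e difference had a 95% confidence interval from 0.06 to 1.50, and its arrays overlapped, from 4.62 to 6.04 in knockouts and from 3.79 to 6.13 in controls. The intervals of the other 9 members included 0, the widest running from −1.04 to 0.59 for Lce1m, so differences of up to about that size in either direction were not resolved.

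Under imiquimod, all 10 members had lower means in knockouts than in controls, with differences from −1.83 to −0.45 and a median of −0.70, against 0.006 over all genes. Only Lce1m passed the test (−1.83 ± 0.39, SE; adjusted p = 0.0364; 3.55-fold lower by its brighter probe set). Of all genes, 0.171% were called lower and 0.374% higher, and 47.9% had an estimate below 0. An unadjusted p under 0.05 was found for 7 members, and for 2218 of the 22180 genes. Arrays overlapped between genotypes for every member but Lce1m, and 1.17% of genes were lower without overlap.

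Lce1l had a mean of 4.74 ± 0.51 in treated knockouts against 5.48 ± 0.32 in treated controls (SD, n = 5), a difference of −0.74 with an adjusted p of 0.246, the smallest after that of Lce1m. Lce1i had a mean of 3.02 ± 0.54 against 3.74 ± 0.48, a difference of −0.72 (adjusted p = 0.272). The members with the steepest response to imiquimod had smaller estimates, −0.46 for Lce1e (adjusted p = 0.731) and −0.58 for Lce1f (adjusted p = 0.55). So did Lce1g, which rose less (−0.45, adjusted p = 0.463). In mock-treated skin the estimates of Lce1e and Lce1f lay above 0, at 0.78 and 0.43, and neither passed. With the hair mean as a covariate, Lce1b (−0.71, adjusted p = 0.0417), Lce1i (−0.66, adjusted p = 0.021) and Lce1l (−0.68, adjusted p = 0.0274) passed as lower beside Lce1m, with estimates no larger than without it. Over all genes, lower calls went from 38 to 183 and higher calls from 83 to 161 with this covariate.

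The difference between the responses of the genotypes, knockout minus control, was below 0 for all 10 members, as it was for 49% of genes. It ran from −1.60 for Lce1m to −0.57 for Lce1g, with a median of −0.87. None passed limma's test, where the smallest adjusted p was 0.608, and 0.018% of genes were called. An unadjusted p under 0.05 was found for 6 members and for 1497 of the 22180 genes. For Lce1e the difference was −1.24 with a 95% confidence interval from −2.26 to −0.22, and for Lce1b it was −0.90 with an interval from −1.82 to 0.03. This difference is made of the same arrays as the 4 comparisons before it, so the signs of a member in them are not independent.

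**Figure D2:**
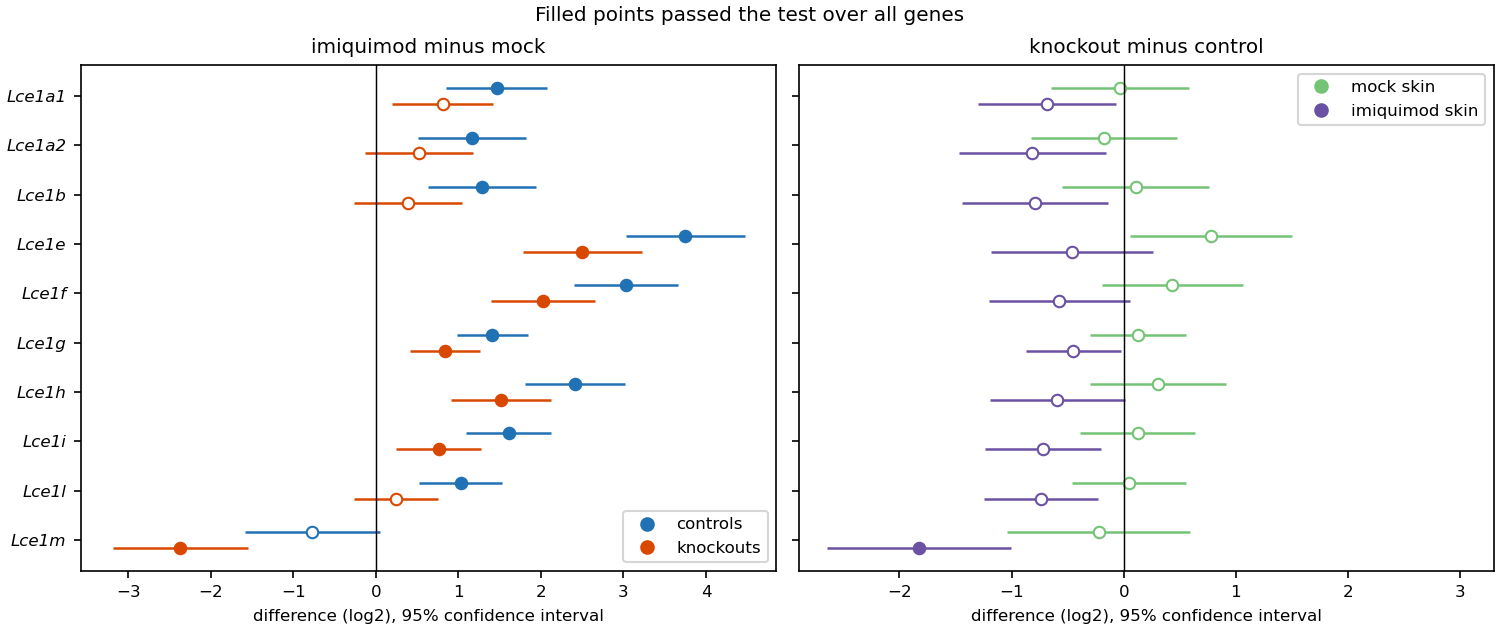
The left panel plots the imiquimod minus mock difference of each Lce1 member in controls and in knockouts, and the right panel the knockout minus control difference in mock-treated and in imiquimod-treated skin, in log2 units with 95% confidence intervals. In the left panel 9 members lie above 0 in both genotypes, and in the right panel all 10 estimates under imiquimod lie below 0, from −1.83 to −0.45.

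Lce1m was the member whose direction depended on the probe set. The platform annotation gives its symbol alone to 2 probe sets, and the brighter one stood for the gene. The brighter one read 8.74, 9.13, 9.84, 9.04 and 10.81 in mock-treated controls and 8.85, 9.39, 8.25, 8.82 and 8.41 in imiquimod-treated controls. It read 8.68, 9.65, 10.03, 9.12 and 8.96 in mock-treated knockouts and 5.6, 6.93, 7.48, 6.78 and 7.80 in imiquimod-treated knockouts. The treated knockouts thus stood alone below the other 15 arrays. Imiquimod minus mock was −0.77 ± 0.39 in controls (SE, adjusted p = 0.247) and −2.37 ± 0.39 in knockouts (SE, adjusted p = 0.000199).

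The dimmer probe set read 6.96, 7.18, 7.84, 7.68 and 8.77 in mock-treated controls and 8.65, 9.06, 8.72, 8.29 and 7.94 in imiquimod-treated controls. It read 7.19, 7.53, 8.14, 7.54 and 7.25 in mock-treated knockouts and 7.48, 7.60, 8.03, 7.78 and 7.84 in imiquimod-treated knockouts. By this probe set the treated controls were the high group and the treated knockouts lay within the mock-treated range. Imiquimod minus mock was 0.85 ± 0.27 in controls (SE, adjusted p = 0.0484 over 23521 probe sets) and 0.22 ± 0.27 in knockouts (SE, adjusted p = 0.667). Knockout minus control under imiquimod was −0.79 ± 0.27 (SE, adjusted p = 0.272). Both probe sets therefore gave lower means in treated knockouts than in treated controls, and opposite signs for the effect of imiquimod within each genotype. Within groups they moved together (r = 0.78 over 20 arrays after subtraction of group means), and each followed the mean of the other 9 members (r = 0.86 for the brighter and 0.82 for the dimmer).

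**Figure D3:**
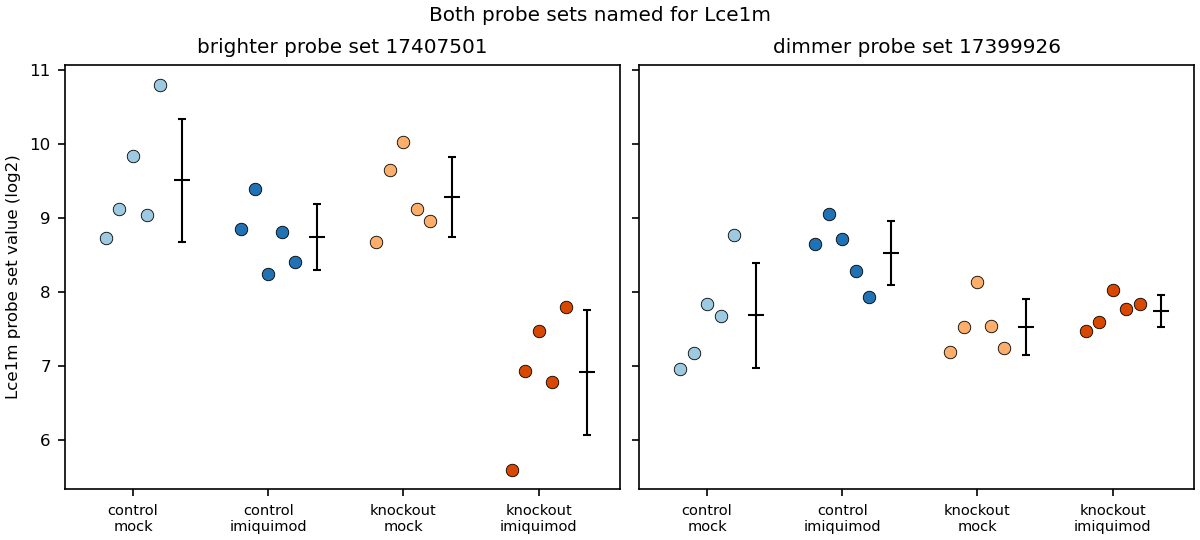
Both probe sets of Lce1m are plotted in separate panels, with the deposited log2 value on the vertical axis and the 4 groups on the horizontal axis; points are arrays and bars the group mean with its SD, and levels are not comparable between panels. The brighter probe set is lowest in imiquimod-treated knockouts at 6.92 ± 0.84, and the dimmer one is highest in imiquimod-treated controls at 8.53 ± 0.43.

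The call of Lce1m between genotypes under imiquimod was also close to the threshold. It was lost when imiquimod-treated control replicate 1, 2, 4 or 5 or imiquimod-treated knockout replicate 1, 2 or 4 was left out (adjusted p from 0.0625 to 0.128, differences from −1.50 to −1.91). With the mean of both probe sets the difference was −1.31 and did not pass.

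Within groups the members varied together from array to array. Over the 45 pairs and 20 arrays, after subtraction of group means, r ran from 0.15 to 0.94 with a median of 0.78. Hair signal varied among the arrays of each group, tissue sampling may vary too, and close paralogs may share probes. The part of each in these correlations was not tested. Lce1b followed the mean of the other 9 most closely (r = 0.96). Lce1g followed it least (r = 0.42), and its lowest pair was with Lce1h (r = 0.15), although their promoter flanks printed above are almost the same. With the group means kept, 9 members correlated with the mean of the others at 0.84 to 0.97, whereas Lce1m, by its brighter probe set, stood at −0.23. The dimmer probe set of Lce1m was highest in treated controls, at a mean of 8.53, and this correlation was not computed for that probe set.

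Outside the members, Lce6a, the neighbouring late cornified envelope gene, was the most alike in pattern. Its correlation with the mean of the 10 members over the 20 arrays was 0.98, and 0.94 within groups. It rose by 1.79 ± 0.25 in controls (SE, adjusted p = 6.22e-05) and by 0.81 ± 0.25 in knockouts (adjusted p = 0.0265). Genes with a provisional symbol (Gm numbers, Rik and LOC names) were left out of these rankings. The next of the remaining genes by this measure were Slc19a2, a thiamine transporter, and Asah2, a ceramidase, at 0.96 each. Chit1, a chitinase, Sdr16c5, a retinol dehydrogenase, and Srpk1, a kinase of splicing factors, followed, also at 0.96. Within groups, Oas1f (0.95), Slc19a2 (0.95), Calm4 (0.94), a calmodulin-like epidermal gene, Them5 (0.94) and Chit1 (0.94) were the highest besides Lce6a. The lowest within groups were Ptpn12 (−0.91), Krtap4-9, a hair keratin-associated protein (−0.91), and Cald1, which encodes the actin-binding caldesmon (−0.90).

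Along the gene order, the members and the Lce3 genes had estimates of opposite sign between the genotypes under imiquimod. Lce1k, which lies between Lce1i and Lce1l, rose by 3.16 in controls (adjusted p = 2.91e-07) and by 1.78 in knockouts (adjusted p = 0.000183). All 6 Lce3 genes rose in both genotypes, with medians of 4.06 in controls and 4.38 in knockouts. Between genotypes under imiquimod their 6 estimates were all above 0, with a median of 0.48, and Lce3a passed (1.57 ± 0.32, SE; adjusted p = 0.0275), where the 10 Lce1 estimates were all below 0. Crct1, between the Lce3 genes and Lce1m, had differences of 0.31 in controls (adjusted p = 0.116) and 0.15 in knockouts (adjusted p = 0.473). No gene of the Lce3 list passed the test of the difference between the responses, as none of the members did, and no test set the lists against each other.

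**Figure D4:**
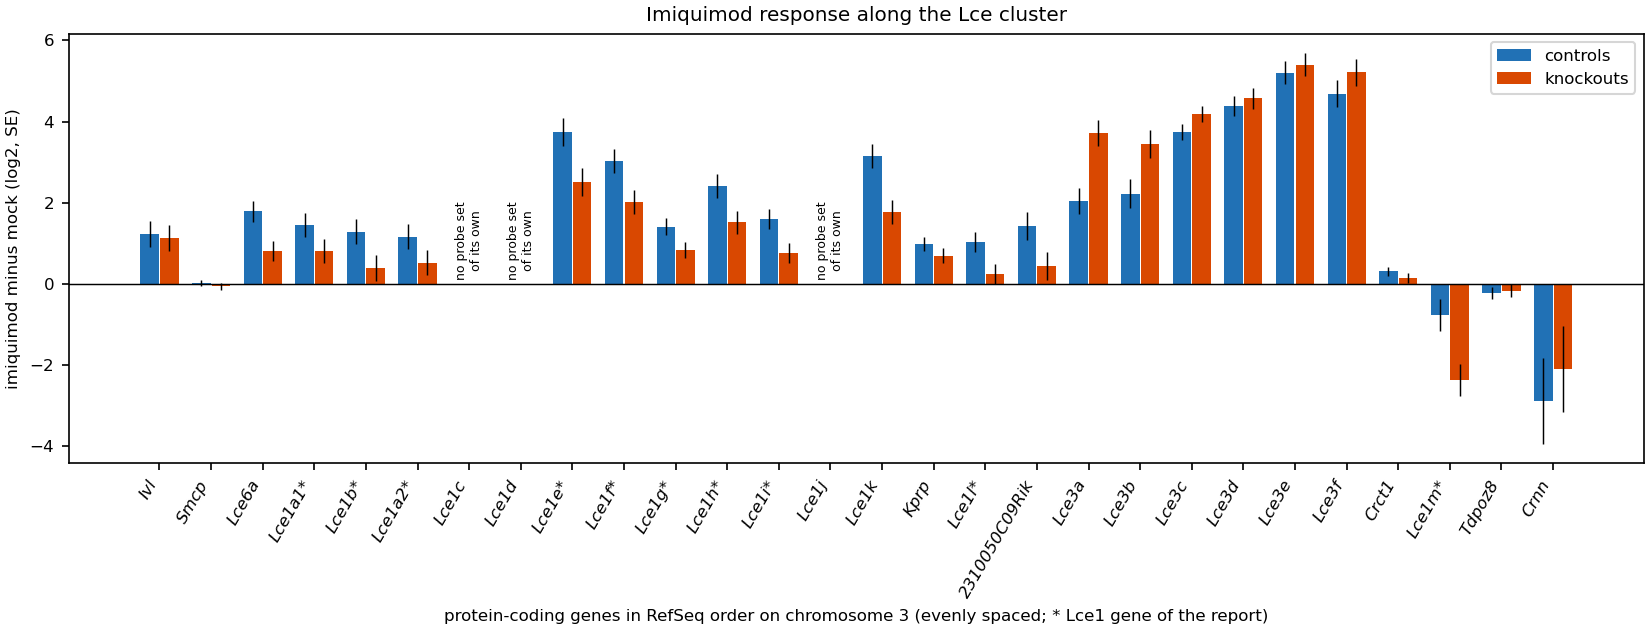
Genes of the Lce cluster are drawn in RefSeq order along the horizontal axis, with the imiquimod minus mock difference in log2 units and its SE on the vertical axis, as paired bars for controls and knockouts with asterisks at the members. The Lce3 genes show differences from 2.04 to 5.40, the members Lce1e to Lce1i from 0.76 to 3.75, and Lce1m, by its brighter probe set, −0.77 and −2.37.

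Other genes of cornification were counted by list. Of 19 further proteins of the epidermal differentiation complex, 9 rose and 0 fell in controls, and 10 rose and 1 fell in knockouts, with medians of 0.93 and 0.70. The largest rise in controls was that of Rptn, which encodes repetin (4.41, adjusted p = 7.69e-09). In knockouts it was that of Sprr2e, a small proline-rich protein (5.85, adjusted p = 4.63e-11). Flg, which encodes filaggrin, rose by 2.74 ± 0.28 in controls and by 2.23 ± 0.28 in knockouts (SE, adjusted p = 8.77e-07 and 7.24e-06). Lor, which encodes loricrin, the main protein of the envelope, had differences of 0.93 (adjusted p = 0.0802) and 0.41 (adjusted p = 0.456), neither past the threshold.

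Flg2, a filaggrin relative, is the member of that list that fell in knockouts, with −0.30 in controls (adjusted p = 0.634) and a fall of 2.27 on the log2 scale in knockouts (adjusted p = 1.7e-05). Its knockout minus control difference under imiquimod was −2.0 ± 0.30 (SE, adjusted p = 0.00245). Krt77, a suprabasal keratin, also differed between treated genotypes, by −2.32 ± 0.33 (SE, adjusted p = 0.00186). It fell in both genotypes, by 1.30 on the log2 scale in controls, and fell by 3.59 in knockouts. Flg2 and Krt77 were described here after their values were seen, and other genes of their lists lay on the other side. Between treated genotypes, 3 of the 19 proteins of the complex were higher and 1 lower in knockouts, with a median of −0.09, and Sprr2e was higher by 1.87 (adjusted p = 0.00245). Of the 6 suprabasal keratins, 0 were higher and 1 lower, with estimates from −2.32 to 1.41.

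Of 19 genes of envelope cross-linking and cornification, such as transglutaminases and lipoxygenases, 15 rose and 0 fell in each genotype, with medians of 0.81 and 0.91, and 0 differed between treated genotypes (5 at an unadjusted p under 0.05). Casp14, a caspase of terminal differentiation, rose by 2.19 in controls and by 2.16 in knockouts. Among 6 suprabasal keratins, 3 rose and 1 fell in controls, and 2 rose and 1 fell in knockouts; Krt10 rose by 0.67 in controls (adjusted p = 0.00962) and had a difference of 0.38 in knockouts (adjusted p = 0.104). Krt1, its partner, rose by 2.63 and 1.93.

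Of 20 regulators of late differentiation, 7 rose and 1 fell in controls, and 7 rose and 2 fell in knockouts. Klf4, a barrier transcription factor, rose by 0.46 in controls and by 0.49 in knockouts (adjusted p = 0.0144 and 0.00481). Ehf, an epithelial ETS factor, rose by 1.52 and 1.69, and Gata3 fell by 0.72 and 0.86 on the log2 scale. Stress keratins rose in 3 of 4 cases in each genotype, with medians of 2.63 and 3.34, led by Krt6b at 5.15 and 5.39. Of 7 measured basal keratinocyte genes, 2 rose and 1 fell in controls, and 3 rose and 2 fell in knockouts. Krt14 rose by 0.85 and 1.27, and Krt15 fell by 1.16 and 2.25 on the log2 scale.

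Markers of other skin components were read beside the members. Of 21 hair genes, 0 passed limma's test in either genotype, but all 21 estimates were below 0 in controls, with a median of −2.72 and 20 at an unadjusted p under 0.05, and 20 of 21 were below 0 in knockouts, with a median of −1.91 and 7 at an unadjusted p under 0.05. Between treated genotypes 18 of the 21 were above 0, with a median of 0.26 and none at an unadjusted p under 0.05. Of 10 skeletal muscle genes, 8 fell and 1 rose in knockouts under imiquimod, with a median of −0.83, whereas 0 fell and 1 rose in controls. Between treated genotypes all 10 muscle genes were below 0, with a median of −0.70, beside −0.70 for the members. Of these, 1 was called lower, 8 had an unadjusted p under 0.05 and 3 did not overlap. Muscle list means ranged from 8.03 to 8.76 in treated knockouts and from 8.82 to 9.71 in treated controls. The muscle mean correlated with the Lce1 mean at r = 0.78 within groups and at 0.21 over all 20 arrays.

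Adipocyte and sebaceous gland genes behaved alike in that comparison. All 7 adipocyte genes and all 8 sebaceous genes had estimates below 0 between treated genotypes, with medians of −0.49 and −0.57, and none passed (0 and 4 at an unadjusted p under 0.05). List means of treated knockouts and controls ranged from 6.78 to 7.67 and from 7.54 to 8.11 for adipocytes, and from 7.70 to 8.58 and from 8.59 to 8.94 for sebaceous glands. Their within-group correlations with the Lce1 mean were 0.71 and 0.63. Neutrophil and monocyte genes moved the other way, with 6 of 10 higher in treated controls, 8 of 10 higher in treated knockouts and 3 of 10 higher in treated knockouts than in treated controls. Of 8 fibroblast genes, 5 fell in controls and 4 in knockouts, with medians of −0.76 and −0.71. Of 6 melanocyte genes, 1 fell in each genotype, with medians of −1.09 and −0.38. The part of muscle, fat, sebaceous gland and blood cell content in the Lce1 results was not tested.

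**Figure D5:**
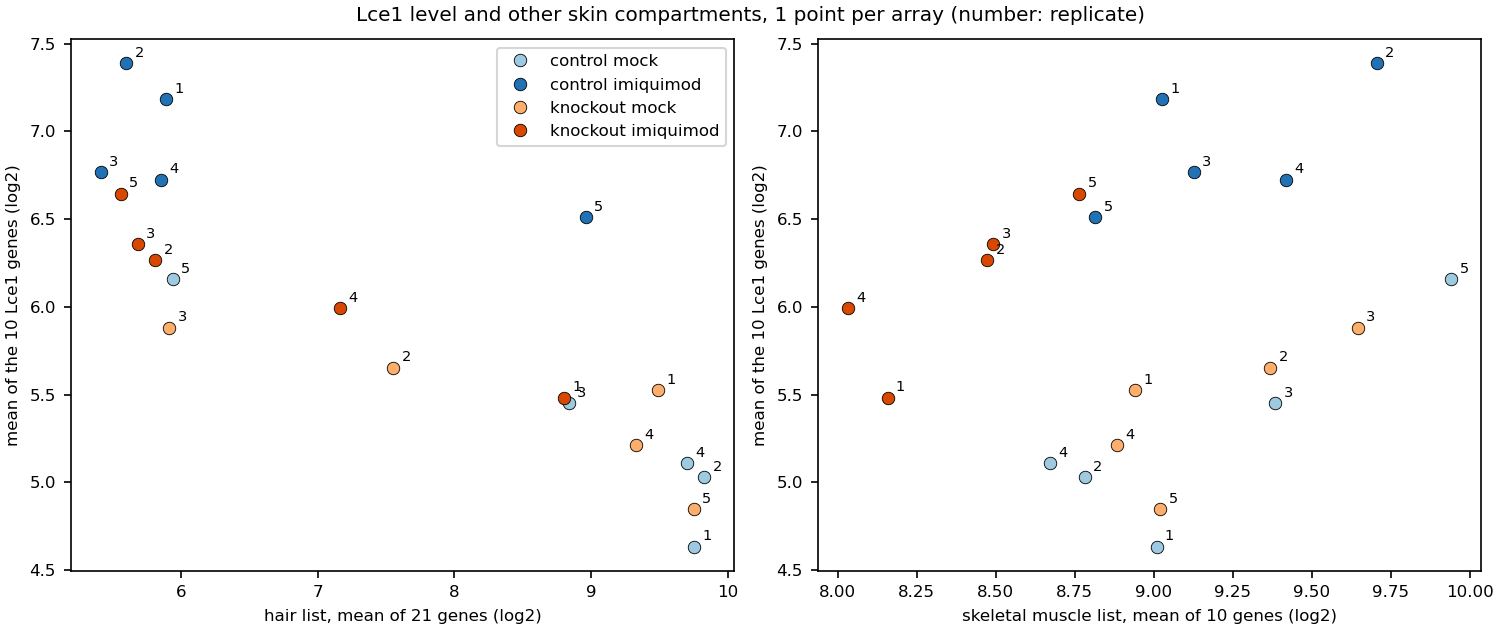
The mean of the 10 Lce1 members on each array (vertical axis, log2) is plotted against the mean of the hair genes in 1 panel and of the skeletal muscle genes in the other (horizontal axes, log2), with points coloured by group. Lce1 means fall as hair means rise within and across groups (r = −0.84 both ways), and imiquimod-treated knockouts lie to the left in the muscle panel, from 8.03 to 8.76.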

How the data were processed

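RNA of abdominal skin from 20 mice (200 ng per sample, per the labels' protocols) was hybridised to Affymetrix arrays. The values of 41345 probe sets per array, as the authors deposited them, were taken as log2 from their range (1.41 to 13.33); their log base, normalization and software are not given here in any label. The platform annotation gives 1 symbol to 23521 probe sets, several to 1814 and none to 16010. The brightest single-symbol probe set stood for each of 22180 genes, with no filter on dim genes.

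Differences were fitted in R 4.3.3 with limma 3.58.1 (lmFit, eBayes) over all 20 arrays, with 1 mean per group (16 residual and 3.99 prior degrees of freedom), two-sided tests and Benjamini-Hochberg adjustment over 22180 genes at 0.05. The fit was tested on simulated data. Zfp36 was compared with an exact permutation test. Promoter windows (RefSeq, GRCm38.p6) were matched by symbol and aligned globally with Biopython 1.88.

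Members, lists and alternatives were chosen with earlier results of these data known. Named genes are the members, Zfp36, Lor, Flg, Krt10, Klf4, each list's called gene with the largest rise and fall per imiquimod contrast (or the smallest p), and the genes most like the members; neighbours in the cluster were added, and the text gives some of them. Alternatives were a replicate block, an intensity trend or robust variance prior, array weights, quantile normalization or median centring, probe set means, the dimmest 30% of genes left out, the hair list as covariate, only the contrast's groups, and each array left out. Chosen after seeing the data were the dimmer Lce1m probe set and a fit without the 4 arrays that stood farthest from their groups in hair genes.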

Additional observations from a re-analysis of the deposited data

Results flagged for a closer look

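In 44 groups of 5 arrays (the 10 members and Zfp36 in each of the 4 groups), 3 held a value whose gap to its nearest neighbour was over 0.71 of the group's range, the 95% critical value of Dixon's test; chance alone marks about 1 in 20 such groups. Lce1f read 8.23 in mock-treated control replicate 5, above the next value of 7.10 in a group that began at 6.64. Lce1g read 3.78 in mock-treated control replicate 3, above the next value of 3.2 in a group that began at 3.0. Lce1l read 3.81 in mock-treated knockout replicate 5, below the next value of 4.53 in a group that reached 4.75. Mock-treated control replicate 5 was also the array of its group with the lowest hair mean (5.94), and mock-treated knockout replicate 5 had the highest hair mean of its group (9.76).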

How the results depend on the processing

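The counts of called members were within 1.5 times of the reported ones in 4 of the 5 comparisons under every alternative run. For imiquimod in controls (9), the count ran from 8 to 9 when single arrays were left out, and it ran from 5 to 7 for imiquimod in knockouts (6). Under the other alternatives it ran from 6 to 10 and from 4 to 7, lowest where the dimmest genes were left out. That setting kept only 7 members in the fit, and none of those 7 lost or gained a call. For knockout against control under imiquimod (1), it was 0 with a robust variance prior, with probe sets averaged per gene, with only the groups of the contrast and with the dimmer Lce1m probe set, 4 with the hair covariate, and 0 to 1 when single arrays were left out. Lce1m turned in sign in controls with the mean of both probe sets (0.039) and with the dimmer one (0.85), and in knockouts with the dimmer one (0.22). With the hair covariate the signs of Lce1b and Lce1l turned in knockouts (−0.143 and −0.142) and between genotypes in mock-treated skin (−0.0137 and −0.0418). In that last comparison Lce1a1 turned with array weights (0.0902) and without the hair-farthest arrays (0.115), and leaving out single arrays gave −0.22 to 0.23 for Lce1a1, −0.51 to 0.053 for Lce1a2, −0.14 to 0.41 for Lce1b, −0.071 to 0.22 for Lce1l and −0.42 to 0.10 for Lce1m. The causes were not tested. The mock-treated Zfp36 check gave −2.45 to −1.54 when single arrays were left out, with an exact p of 0.0556 without control replicate 3.

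The replicate block changed no member call: under the block the counts were 9, 6, 0, 1 and 0 members. Same-numbered arrays did not deviate together (8 of 20 pairs with r over 0.1, range −0.71 to 0.43), so the numbers were not read as pairs. Over all genes, knockout against control under imiquimod gave 83 higher and 38 lower calls, 56 and 22 with the block, 12 and 5 with only these groups, 161 and 183 with the hair covariate, 144 and 98 with array weights, and 32 and 22 without the hair-farthest arrays. Imiquimod in controls gave 1435 higher and 969 lower, 1957 and 1740 with array weights, and 1810 and 1773 without the hair-farthest arrays. The difference between the responses, which needs all groups, had no fit on the contrast's groups alone. Signal over background could not be set for the dim members Lce1a1, Lce1g and Lce1i, which were not tested with the dimmest 30% of genes left out.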
